A study of Mus musculus with 24 samples.

Results

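The neutrophil granule genes Ngp, Ltf, Mpo, Ctsg, Elane, Prtn3, Camp, Lcn2, S100a8 and S100a9 were followed in 24 mouse tumors treated with interleukin-27 (IL-27) gene therapy, cabozantinib (cabo) or both. These 10 genes were listed by symbol and matched by Ensembl identifier in GENCODE M21 among the 55401 gene rows of the count table, and each symbol had 1 row. The list was chosen by the measured subcutaneous differences between IL-27 and control, so the subcutaneous values are given as a description with no test, and tests are kept for the intratibial tumors. All tumors grew in male C57/BL6 mice, obtained at 8 to 10 weeks of age, from implanted TC2Ras cells, which are TRAMP-C2 mouse prostate cancer cells given activated H-Ras and the androgen receptor by lentivirus. Subcutaneous tumors were harvested 1 week after implantation and came from mice given the IL-27 vector (2 tumors) or the empty vector (2 controls). Intratibial tumors grew from the luciferase-bearing TC2Ras-Luc cells and fell into 4 treatments: empty vector with the vehicle polyvinylpyrrolidone (PVP), called control, IL-27 vector with PVP, called IL-27, empty vector with cabozantinib, called cabo, and IL-27 vector with cabozantinib, called IL-27+cabo. Each treatment had 3 tumors at day 14 and 2 tumors at the end of the study (EOS), when mice had reached the ethical endpoint. Cabozantinib or PVP was given by mouth for the first 14 days only, so the EOS tumors were collected after dosing had stopped. Plasmid went into muscle under ultrasound, so the vector was not delivered into the tumor itself. The tumor line is a single line, and the intratibial tumors were taken from bone, which holds marrow of its own.

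Neutrophils are made in the marrow, and their granules are filled in a fixed order as the cells mature. Promyelocytes transcribe the primary (azurophil) granule genes: Mpo encodes myeloperoxidase, and Ctsg, Elane and Prtn3 encode the serine proteases cathepsin G, neutrophil elastase and proteinase 3. Myelocytes and metamyelocytes follow with the secondary (specific) granule genes: Ngp encodes neutrophilic granule protein, Ltf the iron-binding lactotransferrin, Camp the cathelicidin antimicrobial peptide and Lcn2 the siderophore-binding lipocalin 2. S100a8 and S100a9 encode the calgranulins, calcium-binding proteins of the cytosol whose messages persist in circulating neutrophils and monocytes. Transcripts of primary and secondary granules are thus read as signs of immature cells, while Lcn2 and the calgranulins are also made by activated mature cells, and Lcn2 by epithelium. In tissue RNA, fewer cells of a type and less of its RNA per cell cannot be told apart.

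The promoters are shown first, because the members are known as targets of the marrow factors PU.1 and C/EBP. RefSeq promoters of build GRCm38.p6 were found for all 10 members, and the 250 bases before each start were searched on both strands. The PU.1 letters GAGGAA occurred in 7 of the 10 members and in 23.3% of all 32851 promoters. All 4 primary granule genes held them, each on the strand of the gene, and these stretches are printed to show that shared arrangement, with the motif in capitals and the rest in lower case.
Mpo (chr11:87793534-87793580, + strand): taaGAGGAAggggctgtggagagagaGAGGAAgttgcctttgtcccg
Ctsg (chr14:56102755-56102820, - strand): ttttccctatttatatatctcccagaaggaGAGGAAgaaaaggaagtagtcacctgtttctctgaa
Elane (chr10:79886197-79886246, + strand): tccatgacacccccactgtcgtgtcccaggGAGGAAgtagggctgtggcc
Prtn3 (chr10:79879542-79879607, + strand): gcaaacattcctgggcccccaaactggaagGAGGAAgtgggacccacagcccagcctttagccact

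The C/EBP core TTNNGNAA occurred in 5 of the 10 members, which were Ngp, Ltf, Lcn2, S100a8 and S100a9, and in 36.8% of all promoters. None of the primary granule genes held it in this window. The RUNX letters TGTGGT were found in Ctsg and S100a9 and in 14.0% of all promoters. Ngp and Ltf also shared 8 letters, TTGCCCAA or its reverse complement TTGGGCAA, which 0.709% of promoters hold on either strand. That shared match, marked in capitals, was noticed after the search and describes the letters only. Occupancy of these sites was not measured.
Ngp (chr9:110419640-110419707, + strand): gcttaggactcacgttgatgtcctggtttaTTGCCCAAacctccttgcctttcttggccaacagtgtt
Ltf (chr9:111019187-111019254, + strand): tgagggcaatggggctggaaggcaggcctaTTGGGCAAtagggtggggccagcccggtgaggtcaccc

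On GRCm38 as annotated in GENCODE M21, Camp, Ngp and Ltf lie in that order on chromosome 9. Camp (109847379 to 109849617) and Ngp (110419747 to 110423012) are 570129 bases apart with 8 protein-coding genes between them, and Ngp and Ltf (111019271 to 111042767) are 596258 bases apart with 20 between them. Prtn3 and Elane are direct neighbours on chromosome 10, with 3072 bases and no coding gene between them, and S100a8 and S100a9 are neighbours on chromosome 3. Prtn3 overlaps Plppr3 and Mpo overlaps Gm11505 in the annotation, and the strand setting of the counting is not given, so the low counts of Prtn3 are uncertain. Gm11505 had no count in any library.

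Each library held between 63729005 and 83782258 counts on genes, where 3 counts, used as the detection floor, equal 0.0358 to 0.0471 CPM (counts scaled to a common library total) before normalization. CPM values below are scaled by TMM, the trimmed-mean normalization of edgeR. The lowest chi-square per degree of freedom between libraries of a group was 22.2, so no library was a copy of another in its group. Libraries of different groups were not compared in this way. In the tibia, the library of day 14 IL-27+cabo mouse 20 stood apart, with a chi-square per degree of freedom of 1330 and 1216 against the other two of its group, which differed by 72.3. Its megakaryocyte genes summed to 272 CPM against 32.5 and 50.4 CPM and its tumor epithelium genes to 315 against 82.2 and 93.3 CPM, so results that rest on it are also given without it. The subcutaneous IL-27 libraries stood apart from their controls beyond the granule genes. They held 163 and 182 counts of the mouse gene Hras against 3689 and 1412 in the controls. The tumor line was given activated H-Ras, but whether these counts come from the added gene is not known. Krt8, a keratin of the tumor epithelium, had 335 and 159 counts against 5365 and 1532. The summed level of 10 skeletal muscle genes was 857 and 335 CPM in the IL-27 libraries against 11.9 and 2.75 CPM. The summed level of 10 erythroid genes overlapped, at 45.1 and 231 CPM against 97.7 and 51.7 CPM. Eosinophil sums and monocyte and macrophage sums overlapped as well. Marrow B lineage genes were higher without overlap, at 17.6 to 46.2 against 8.83 to 14.0 CPM. Mast cell and basophil genes were higher too, at 37.8 to 59.6 against 17.8 to 30.5 CPM. Megakaryocyte genes were lower, at 9.42 to 15.1 against 33.6 to 52.4 CPM. The part of these differences in the granule values was not tested, and the site, harvest time and library series of subcutaneous and intratibial tumors cannot be told apart.

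**Figure D1:**
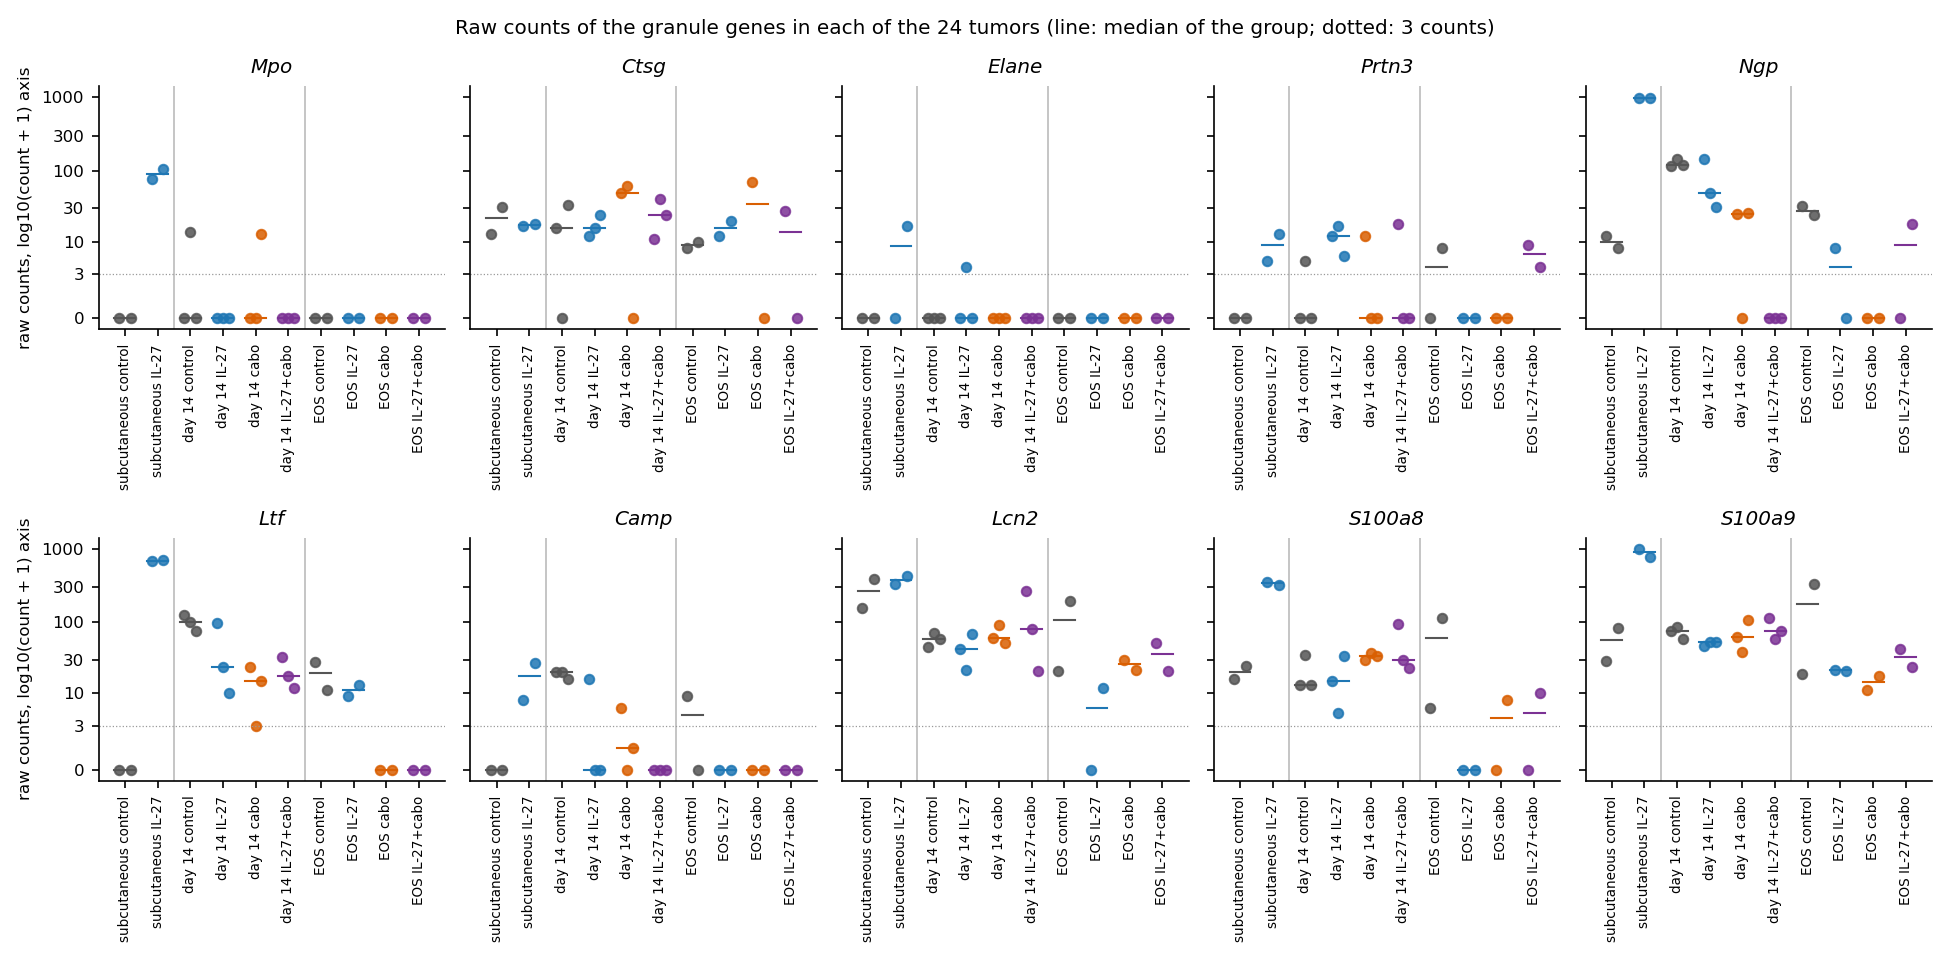
Raw counts (log10(count + 1) axis) of the 10 granule genes in each of the 24 tumors, 1 point per tumor, by group on the x axis, with a line at the median of each group and a dotted line at 3 counts. Ngp reached 975 and 987 counts in the subcutaneous IL-27 tumors, 116 to 144 in the day 14 controls and 0 in the 3 day 14 IL-27+cabo tumors, while Elane was at 0 in 19 of the 20 intratibial tumors.

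The subcutaneous IL-27 tumors carried by far the most Ngp and Ltf RNA of any tumor in the series, in a contrast that also chose these genes. The other secondary granule genes of the list did not share this. Camp had 8 counts in subcutaneous IL-27 replicate 1, below the 16 to 20 counts of the day 14 controls, and Lcn2 overlapped the subcutaneous controls. Ngp had 975 and 987 counts in the subcutaneous IL-27 tumors and 12 and 8 in the subcutaneous controls. Ltf had 683 and 692 counts against 0 in both controls, and Camp 8 and 27 against 0 in both. Of the primary granule genes, Mpo had 78 and 104 counts against 0 in both controls, Prtn3 5 and 13 against 0, and Elane 0 and 17 against 0. Ctsg went with neither class: it had 17 and 18 counts in the IL-27 tumors and 13 and 31 in the controls, and the groups overlapped.

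Fitted by edgeR, the difference of IL-27 from control on the log2 scale was 6.57 (standard error, SE, 0.56) for Ngp, from 0.129 ± 0.0316 to 12.3 ± 0.664 CPM (SD, n = 2 each). Against the floor of 3 counts per library, Ltf was at least 221-fold, Mpo at least 29.4-fold and Camp at least 5.72-fold higher. These bounds take each count as a fragment and would be smaller if counts exceed fragments. Both calgranulins were higher without overlap. S100a8 had 349 and 325 counts against 16 and 25, a log2 difference of 3.98 (SE 0.62), and S100a9 had 1004 and 779 against 29 and 84, a log2 difference of 3.91 (SE 0.67). Without control replicate 2 the S100a9 difference was 4.91 and without control replicate 1 it was 3.31, and that of S100a8 was 4.37 without control replicate 2 and 3.14 with trends of GC content and length removed. Lcn2, by contrast, had 335 and 426 counts in the IL-27 tumors and 156 and 384 in the controls, and these ranges overlapped. Of the 10 members, 7 passed the filter on low counts in this contrast, and 20% of the 19360 genes tested there had an adjusted p under 0.05, 35.4% an unadjusted one. Higher levels without overlap were found for 28.8% of 22301 genes and lower ones for 32.1%. The contrast chose the members, so nothing is read from their values against that share.

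Per kilobase of exon, the scale on which levels of different genes can be compared, S100a9 was the highest member in the subcutaneous IL-27 tumors at 21.3 ± 2.84 CPM per kb (SD, n = 2). Ngp followed at 10.0 ± 0.543, S100a8 at 6.06 ± 0.0294, Ltf at 2.49 ± 0.136 and Lcn2 at 1.82 ± 0.389 CPM per kb. Mpo stood at 0.334 ± 0.0822, Camp at 0.294 ± 0.235 and Ctsg at 0.212 ± 0.0182 CPM per kb, and the ranges of Camp and its neighbours in this order overlapped. Camp was thus far below Ngp and Ltf although all 3 belong to the secondary granule. In the day 14 control tumors S100a9 was again highest at 1.86 ± 0.310 CPM per kb (n = 3), followed by Ngp at 1.38 ± 0.123, and Camp at 0.329 ± 0.0358 was close to Ltf at 0.391 ± 0.101 and S100a8 at 0.386 ± 0.228.

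**Figure D2:**
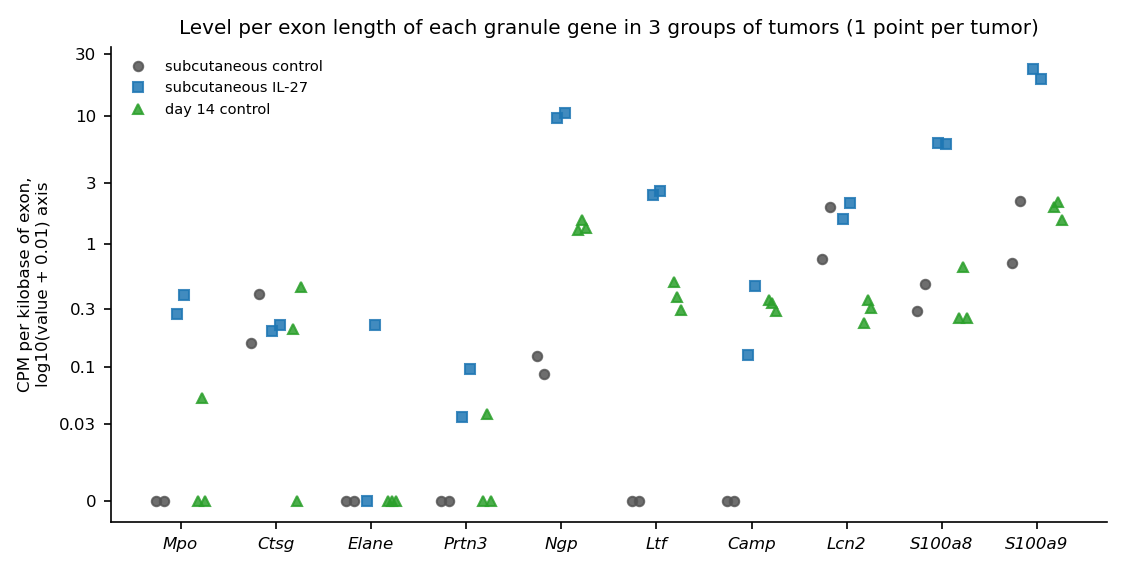
CPM per kilobase of exon (log10(value + 0.01) axis) of each granule gene on the x axis, 1 point per tumor, in the subcutaneous control (circles), subcutaneous IL-27 (squares) and day 14 control (triangles) tumors. S100a9 and Ngp led in the subcutaneous IL-27 tumors at 21.3 and 10.0 CPM per kb, and Ctsg averaged 0.212 to 0.279 CPM per kb in the 3 groups.

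In the tibia, primary granule RNA was at or near the limit of detection. Mpo was at 0 in 18 of the 20 intratibial tumors and had 14 counts in day 14 control mouse 5 and 13 in day 14 cabo mouse 27. Elane had 4 counts in 1 tumor, day 14 IL-27 mouse 6, and Prtn3 was above 0 in 9 tumors with at most 18 counts. The list of 6 further genes of this stage was mixed. Fcnb, which encodes a ficolin of marrow granules, had 4 counts in day 14 control mouse 3 and 0 elsewhere, and Ms4a3, a marker of granulocyte and monocyte progenitors, was at 0 in all intratibial tumors. Prss57, a serine protease of primary granules, reached at most 7 counts. Ctsc, which encodes the protease that activates these serine proteases and is also made by macrophages, had 3467 to 19622 counts, and Gfi1 is given with the other lists below. Ctsg, detected in 16 of the 20 tumors with up to 70 counts, was the exception among the primary granule genes. The tumor with 70 counts of Ctsg, EOS cabo mouse 19, held no count of Mpo, Elane, Prtn3, Ngp, Ltf or Camp. Cebpe, which encodes the factor that turns on secondary granule genes, stayed between 0 and 36 counts. A count of 0 at these depths allows up to 3 counts, or more if counts exceed fragments, and is not absence.

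The first tested question was what IL-27 did to these genes in the day 14 intratibial tumors. Ngp had 145, 50 and 31 counts in IL-27 mice 4, 6 and 8 and 116, 144 and 119 in control mice 3, 5 and 7. Mouse 4 lay above every control and the other two below, so the groups overlapped. In Ltf, with 97, 24 and 10 counts against 127, 101 and 75, mouse 4 lay within the control range and mice 6 and 8 below it, and Camp had 16, 0 and 0 counts against 20, 20 and 16. S100a9 had 47, 54 and 53 counts against 75, 86 and 58, which did not overlap as raw counts but did once scaled, at 0.661 to 0.843 CPM against 0.793 to 1.11 CPM. S100a8 overlapped, with 15, 5 and 34 counts against 13, 35 and 13. The log2 fold change was -0.63 (SE 0.54) for Ngp and -1.10 (SE 0.74) for Ltf. By edgeR's quasi-likelihood test, 0 of the 7 members that passed the filter had an adjusted p under 0.05, beside 0.0% of the 18519 genes tested, and the lowest adjusted p of a member was 1.00. No member had an unadjusted p below 0.05, as 2.76% of genes did, and DESeq2 called 0 members. The only member without overlap in CPM was Prtn3, with 12, 17 and 6 counts against 0, 5 and 0, where 3.48% of 22301 genes were higher without overlap and 4.19% lower. It did not pass the filter on low counts.

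Under cabo alone, the secondary granule genes Ngp, Ltf and Camp were lower than in every day 14 control tumor, while Lcn2, S100a8 and S100a9 were not. Ngp had 25, 0 and 26 counts in cabo mice 21, 25 and 27, against 116 to 144 in the controls. Its level was 0.244 ± 0.212 CPM against 1.68 ± 0.15 CPM (SD, n = 3 each), a log2 fold change of -2.79 (SE 0.88). Ltf had 24, 3 and 15 counts against 75 to 127, a log2 fold change of -2.75 (SE 0.63), and Camp 6, 0 and 1 against 16 to 20, a log2 fold change of -2.85 (SE 0.97). These 3 genes shared the direction, and none of their groups overlapped. Their sizes rest on few counts and have wide standard errors, so likeness in size is not read from them. The 3 were grouped after their values were seen, and the wider list of secondary and tertiary granule genes, given below, did not fall with them. Of 22301 genes, 11.3% were lower in cabo without overlap and 12.8% were higher.

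None of these differences passed the threshold over all genes in edgeR. The adjusted p was 0.158 for Ngp, 0.0793 for Ltf and 0.182 for Camp, beside 1.89% of the 18627 genes tested with an adjusted p under 0.05. All 3 had an unadjusted p below 0.05, as did 18.9% of genes. With DESeq2 the adjusted p was 0.00495 for Ngp and 0.000569 for Ltf, and with counts divided by 4 and edgeR it was 0.0469 and 0.0307, so their calls depend on the tool and on how the counts relate to fragments. Lcn2 had 61, 91 and 51 counts under cabo against 45, 72 and 59 (log2 fold change 0.28, SE 0.34), S100a8 30, 38 and 34 against 13, 35 and 13 (log2 fold change 0.83, SE 0.52), and S100a9 62, 39 and 107 against 75, 86 and 58 (log2 fold change 0.02, SE 0.42). All 3 overlapped their controls. Ctsg had 49, 61 and 0 counts against 16, 0 and 34, an overlap as well.

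In the IL-27+cabo tumors Ngp was at 0 in all 3 libraries (mice 20, 22 and 24). If each count is a fragment, that is at least 36.2-fold below the day 14 control level against a floor of 3 counts per library. Counts may exceed fragments, as given under processing, and the bound would then be smaller. The edgeR adjusted p of Ngp was 0.0623, and over the settings other than leaving out tumors it ranged from 7.64e-10 with DESeq2 to 0.0705. Without IL-27+cabo mouse 20 it was 0.0131, and over all tumors left out in turn it reached 0.405. Camp was also at 0 in all 3, at least 5.35-fold lower on the same condition (adjusted p = 0.227 by edgeR). Ltf, which had fallen below its controls together with Ngp under cabo alone, was still present here with 33, 18 and 12 counts (log2 fold change -1.95, SE 0.63, edgeR adjusted p = 0.553). Lcn2 and the calgranulins overlapped their controls. Lcn2 had 268, 81 and 21 counts and S100a8 95, 30 and 23, with mouse 20 highest in both, and S100a9 had 114, 59 and 76. Without mouse 20 the log2 fold change went from 1.49 to -0.18 for Lcn2, from 1.67 to 0.42 for S100a8 and from 0.48 to -0.07 for S100a9, and that of Ltf to -2.71 (edgeR adjusted p = 0.0591). For the whole list, edgeR called 0 of 7 members tested, beside 0.064% of 18750 genes, with 3 members at an unadjusted p below 0.05, as 6.2% of genes were, and 2 called by DESeq2, Ngp and Camp. Ngp, Ltf and Camp were lower without overlap, as were 7.17% of 22301 genes, and 7.02% were higher. The interaction of IL-27 and cabo tests, on the log scale, whether the combination differs from the log2 fold changes of the single treatments added together. It had 0 of 8 members called by edgeR, beside 0.0% of 19899 genes. Among members only Ngp had an unadjusted p below 0.05 there, as 1.88% of genes did, and DESeq2 called 0 members.

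Because Ngp was lower in each cabo tumor than in each tumor without cabo, the 12 day 14 tumors were also fitted together with the vector as a covariate, a comparison added after the values were seen. Ngp ranged from 31 to 145 counts (median 117.5) in the 6 tumors without cabo and from 0 to 26 (median 0) in the 6 with it, at 0 in 4 of them, and these ranges did not overlap. Of 22301 genes, 1.33% were lower in cabo without overlap in this way and 1.13% higher. The log2 fold change was -4.29 (SE 1.04) and the edgeR adjusted p 0.0814, with 0.895% of 19899 genes under 0.05. At an unadjusted p below 0.05 were 4 members and 12.5% of genes. DESeq2 gave an adjusted p of 3.6e-05, counts divided by 4 gave 0.0288, and leaving out IL-27+cabo mouse 20 gave 0.0423, while over all 12 tumors left out in turn it ranged up to 0.169. Ltf ranged from 10 to 127 counts without cabo and from 3 to 33 with it, which overlap through IL-27 mice 6 and 8 (log2 fold change -1.80, SE 0.68, adjusted p = 0.271). S100a8 went the other way in sign, with a median of 14 counts without cabo and 32 with it (log2 fold change 1.26, SE 0.56, edgeR adjusted p = 0.380). Without mouse 20 its log2 fold change was 0.67 (edgeR adjusted p = 0.400). The matching fit for IL-27, with cabo as the covariate, called 0 of 8 members by edgeR and 0 by DESeq2, beside 0.0% of 19899 genes, with 0 members and 3.53% of genes at an unadjusted p below 0.05.

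**Figure D3:**
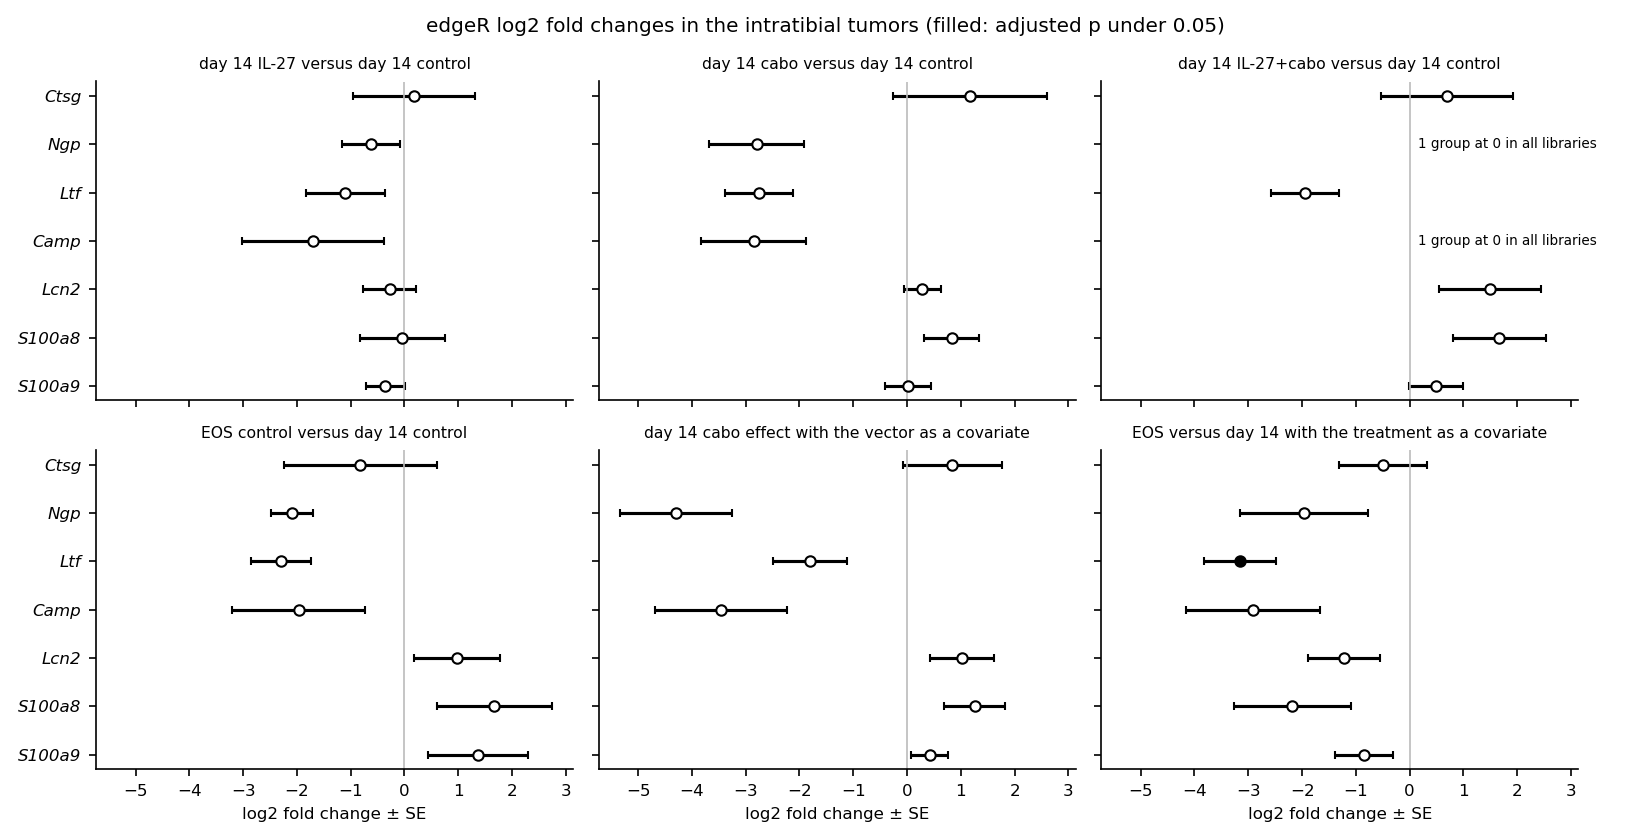
log2 fold changes with their standard errors from edgeR for 7 members in 6 intratibial comparisons, filled where the adjusted p was under 0.05 and replaced by words where a group was at 0 in all its libraries. Ngp, Ltf and Camp lay left of 0 in every panel that draws them, and the only filled point is Ltf for EOS versus day 14, at -3.16.

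Skeletal muscle RNA moved with cabo in the same tumors. The summed level of the 10 muscle genes was 5.11 to 120 CPM in the day 14 controls and 946 to 1488 CPM under cabo. By edgeR 4 of the 10 were called higher under cabo, where 223 of all 18627 genes were. The IL-27+cabo tumors held 1234 to 4109 CPM. Among the IL-27 tumors, mouse 8 had 1695 CPM of muscle RNA with 31 counts of Ngp, mouse 6 had 57.4 CPM with 50 counts and mouse 4 had 24.5 CPM with 145 counts. Other marker lists differed without overlap in summed CPM between cabo and control at day 14. Of 22301 single genes, 11.3% were lower without overlap and 12.8% higher, and no such share was computed for summed lists. Eosinophil genes, at few counts, stood at 0.143 to 0.332 against 0.605 to 1.19 CPM. Mast cell and basophil genes stood at 0.937 to 1.18 against 2.15 to 6.58 CPM. Osteoclast genes stood at 110 to 161 against 180 to 217 CPM, and megakaryocyte genes at 38.0 to 44.5 against 22.3 to 23.9 CPM. The B lineage of the marrow overlapped, at 9.06 to 12.6 against 9.17 to 12.8 CPM. The part of muscle and of these other cells in the granule differences was not tested. S100a9 in the same cabo tumors stood at 0.989 ± 0.512 CPM against 0.972 ± 0.162 CPM in the controls (SD, n = 3 each). The erythroid markers, a sign of blood or marrow, summed to 53.1 to 242 CPM in the day 14 controls and to 14.6 to 30.5 CPM under cabo, without overlap, and of the 10 genes 7 passed the filter and none was called. In IL-27+cabo mice 20, 22 and 24, all with Ngp at 0, they summed to 173, 16.3 and 37.8 CPM. The part of erythroid content was not tested.

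At EOS, Camp was at 0 in 7 of 8 tumors and Ngp and Ltf each in 4 of 8. Ngp had 32 and 24 counts in control mice 13 and 9, 8 and 0 in IL-27 mice 10 and 12, 0 in both cabo tumors, and 0 and 18 in IL-27+cabo mice 16 and 28. Ltf had 28 and 11 counts in the controls, 9 and 13 under IL-27 and 0 in all 4 tumors given cabo, and Camp had 9 counts in control mouse 13. The EOS controls lay below the day 14 controls without overlap in Ngp (log2 fold change -2.09, SE 0.39, edgeR adjusted p = 0.132) and Ltf (log2 fold change -2.30, SE 0.56, adjusted p = 0.20), and also in Camp, with 9 and 0 counts against 20, 20 and 16 (log2 fold change -1.97, SE 1.24, adjusted p = 0.529). None was called by edgeR, which called 0 of 7 members tested beside 0.104% of 19292 genes, with 2 members at an unadjusted p below 0.05, as 13.1% of genes were. Lower levels without overlap were found for 15.1% of 22301 genes and higher ones for 16.3%. Summed mast cell and basophil genes were also lower in the EOS controls, at 0.475 to 1.72 against 2.15 to 6.58 CPM. Erythroid, eosinophil, megakaryocyte, marrow B lineage, and monocyte and macrophage sums overlapped. The part of other cells in this change was not tested. DESeq2 called Ngp and Ltf, with adjusted p of 0.000315 and 0.00777.

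EOS control mouse 9 differed from the other EOS control in the calgranulins. It had 114 counts of S100a8, 333 of S100a9 and 195 of Lcn2, against 6, 19 and 21 in EOS control mouse 13, while its Ngp and Ltf stayed at 24 and 11 counts and Camp at 0. It also held 1349 counts of Il1b and 1186 of Clec4e, against 51 and 140 in mouse 13, and its erythroid markers summed to 485 CPM against 86.1 CPM. The direction of the calgranulins between EOS and day 14 controls rests on this tumor: the log2 fold change of S100a8 was 1.67 with it and -1.68 without it, and that of S100a9 was 1.37 and -1.89. Among the other 6 EOS tumors, S100a8 ranged from 0 to 10 counts and S100a9 from 11 to 43, below the day 14 medians of 30 and 60.5.

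Within the other treatments, no member passed the threshold by edgeR between day 14 and EOS. Cabo tumors had 11 and 18 counts of S100a9 at EOS against 62, 39 and 107 at day 14 (log2 fold change -2.26, SE 0.60, adjusted p = 0.126), and 0 of 6 members tested were called beside 2.09% of 19144 genes, with 5 members and 17.6% of genes at an unadjusted p below 0.05 and 1 member, S100a9, called by DESeq2. Lower and higher levels without overlap were found for 16.7% and 16.5% of 22301 genes. IL-27 tumors had 0 of 7 members called beside 0.0% of 19078 genes, with 4 members and 5.05% of genes at an unadjusted p below 0.05 and 1 member, Ngp, by DESeq2, and 10.7% of genes lower and 12% higher without overlap. IL-27+cabo tumors had 0 of 5 called beside 0.0% of 19365 genes, with 1 member and 3.83% of genes at an unadjusted p below 0.05 and 1 member, Ltf, by DESeq2, and 10.4% of genes lower and 10.6% higher without overlap. Against the EOS controls, the IL-27, cabo and IL-27+cabo tumors each had 0 of 5 members called by edgeR, beside 0.0% of 20026 genes in each comparison, with 2, 3 and 1 members at an unadjusted p below 0.05 (3.25%, 8.9% and 14.2% of genes) and 0, 1 and 0 called by DESeq2. In these comparisons 15.9%, 21.3% and 21.7% of 22301 genes were lower without overlap and 15.6%, 19.6% and 18.7% higher. Tests of whether the change from day 14 to EOS differed from that of the controls gave no call: edgeR called 0 of 9 members each time, beside 0.0%, 0.0788% and 0.0788% of 21563 genes for IL-27, cabo and IL-27+cabo. DESeq2 also called 0 there, with 3, 3 and 4 members at an unadjusted p below 0.05 beside 1.93%, 4.11% and 9.14% of genes. These comparisons share the control tumors.

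Pooling the 20 intratibial tumors, with the treatment as a covariate, gave the only call by edgeR among the members, in a comparison added after the values were seen. Ltf ranged from 3 to 127 counts at day 14 (median 24) and from 0 to 28 at EOS (median 4.5), and was at 0 in 4 of 8 EOS tumors and in none of the 12 at day 14. Its log2 fold change was -3.16 (SE 0.67, adjusted p = 0.0289), beside 0.988% of 21563 genes called and 13.8% at an unadjusted p below 0.05. The call was marginal: the adjusted p rose to 0.0603 without day 14 IL-27 mouse 4, 0.0617 without EOS IL-27+cabo mouse 16, 0.0540 without EOS IL-27 mouse 10, 0.0709 without EOS cabo mouse 23 and 0.0559 without EOS control mouse 9. DESeq2 called 2 members in this comparison, among them S100a8 (log2 fold change -2.59, adjusted p = 0.0484). By edgeR, Ngp had a log2 fold change of -1.97 (SE 1.19, adjusted p = 0.478) and S100a9 of -0.85 (SE 0.53, adjusted p = 0.493). Without EOS control mouse 9, S100a9 was called, at a log2 fold change of -1.72 (adjusted p = 0.0139).

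The balance of the classes within a tumor does not depend on normalization between libraries. The sum of Ngp, Ltf and Camp counts divided by the sum of S100a8 and S100a9 counts was 2.19 to 2.99 in the day 14 controls, 0.0390 to 0.598 under cabo and 0.121 to 0.202 under IL-27+cabo. In the IL-27 tumors it was 4.16 in mouse 4, 1.25 in mouse 6 and 0.471 in mouse 8, the last of which lies within the cabo range. At EOS it was 2.76 in control mouse 13, 0.0783 in control mouse 9, 0.619 to 0.773 under IL-27, 0 in both cabo tumors, and 0 and 0.529 under IL-27+cabo. The subcutaneous IL-27 tumors stood at 1.23 and 1.55 and their controls at 0.0734 and 0.267. These 3 genes were grouped after their values were seen and without Lcn2. With Lcn2 counted among them the ratio was 2.79 to 3.79 in the day 14 controls, 1.26 to 4.84 under IL-27, 0.660 to 1.26 under cabo and 0.333 to 1.44 under IL-27+cabo. At EOS it was then 2.73 and 0.846 in the cabo tumors, 0.773 and 1.19 in the IL-27 tumors and 1.21 and 1.15 in the IL-27+cabo tumors, against 3.60 and 0.515 in control mice 13 and 9, and the order of the subcutaneous groups turned, to 1.48 and 1.93 with IL-27 against 3.73 and 3.60 in the controls. No test was made on the ratio.

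**Figure D4:**
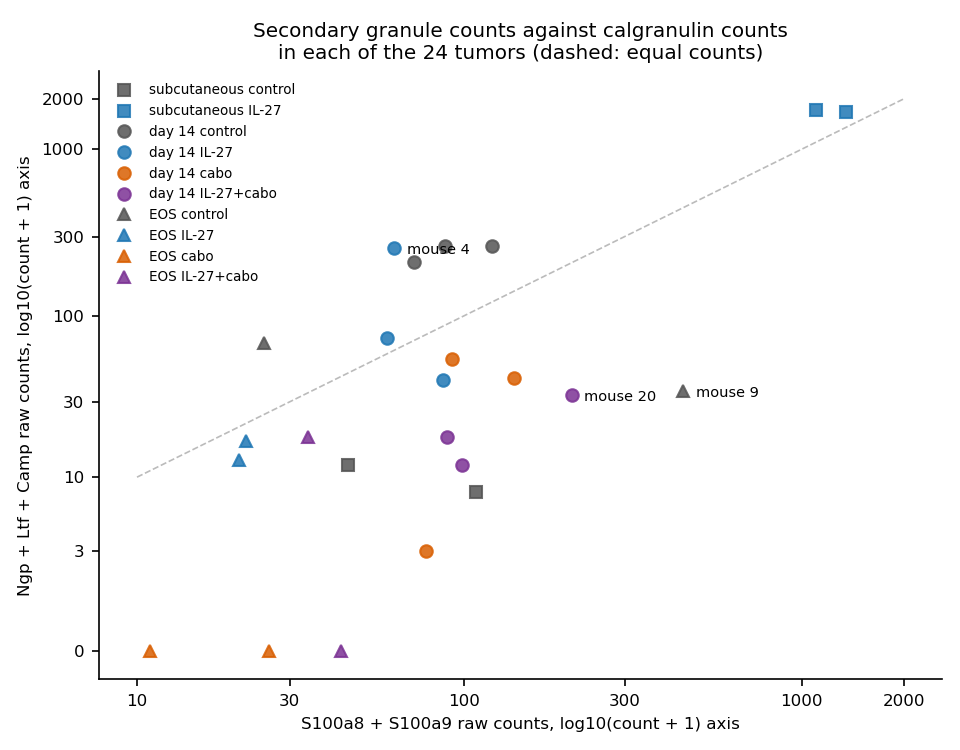
Sum of Ngp, Ltf and Camp raw counts against the sum of S100a8 and S100a9 raw counts (both log10(count + 1) axes) in each of the 24 tumors, coloured by treatment and shaped by site and time, with a dashed line of equal counts. The day 14 controls lie above the line at 210 to 265 secondary granule counts, the day 14 cabo and IL-27+cabo tumors below it at 3 to 55, and EOS control mouse 9 far to the right at 447 calgranulin counts with 35 secondary granule counts.

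The other neutrophil genes, in 3 lists of 6, 10 and 15, were fitted in the same comparisons, and these lists too were drawn up with earlier results known. In day 14 cabo against control, 14 of the 15 receptors and response genes of mature neutrophils passed the filter and 3 were called higher by edgeR, none lower, where 223 of all 18627 genes were called higher and 129 lower, with a median log2 fold change of 1.42 against -0.01 over all genes tested. The 3 were Trem1, an amplifying receptor of neutrophils and monocytes (log2 fold change 1.38, adjusted p = 0.0376), Clec4d, a C-type lectin receptor (1.54, adjusted p = 0.0416), and Il1b, which encodes interleukin-1β (1.50, adjusted p = 0.0416). Il1b had 939, 1229 and 1206 counts under cabo against 570, 429 and 261 in the controls. These genes are also expressed by monocytes and macrophages, whose 10 markers summed to 836 to 1917 CPM in the controls and 1491 to 1993 CPM under cabo, with none called. Of the 10 genes of secondary and tertiary granules, 9 passed and none was called in either direction, with a median of 0.34, and of the 6 primary granule and promyelocyte genes 2 passed and none was called. Ly6g, a surface marker of mouse neutrophils, had 113, 35 and 89 counts under cabo against 46, 46 and 0, and Csf3r, the receptor for G-CSF, 504, 922 and 453 against 315, 179 and 246.

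From day 14 to EOS in the cabo group, whose dosing had ended by then, 5 of the 31 listed genes fell by edgeR, where 219 of all 19144 genes were called lower and 181 higher. They were Chil3, a chitinase-like protein of neutrophil granules and macrophages (log2 fold change -2.29, adjusted p = 0.0109), the formyl peptide receptor Fpr2 (-2.90, adjusted p = 0.0146), the lectin receptors Clec4d (-1.85, adjusted p = 0.0058) and Clec4e (-1.82, adjusted p = 0.00899), and Il1b (-2.83, adjusted p = 0.00181). The monocyte genes Ccr2 and Ly6c2 and the macrophage receptor Mrc1 were called lower in the same contrast. With all treatments pooled, Mmp9, the gelatinase of tertiary granules that osteoclasts also make, rose from day 14 to EOS, where 58 of all 21563 genes were called higher and 155 lower (log2 fold change 1.75, adjusted p = 0.00826), and so did 4 of 5 osteoclast genes, while Il1r2, the decoy receptor for interleukin-1, fell (log2 fold change -1.21, adjusted p = 0.0381). Neither Cxcr2, the chemokine receptor of mature neutrophils, nor Mmp8, the neutrophil collagenase, nor Retnlg, a resistin-like protein of neutrophils, was called in any intratibial comparison by edgeR. Gfi1, a repressor needed for granulocyte maturation that lymphocytes also use, had 1667 to 5995 counts in the intratibial tumors and was not called.

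In the subcutaneous tumors, described without a test, the mature genes were mixed. Il1r2 had 1422 and 1669 counts with IL-27 against 176 and 131. Csf3r, however, had 659 and 727 counts against 723 and 750, and Ly6g 33 and 34 against 52 and 57, so Csf3r overlapped its controls and Ly6g lay below them. Of the 10 genes of secondary and tertiary granules, 6 were higher in sign with IL-27, among them Ifitm6 (log2 difference 3.31, SE 0.63), Cd177 (3.12, SE 0.69) and Chil3 (2.33, SE 0.43), and 4 lower, of which Mmp9 had 366 and 236 counts against 1158 and 1134.

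The genes most like each class over the 20 intratibial tumors were found by Pearson's r with the mean log2 CPM of the class, among 21554 genes. For the secondary granule genes the 5 most alike were Lag3 (r = 0.941, Spearman's rho 0.889), Cd3d (0.920), Sh2d1a (0.912), Npas4 (0.912) and Trbc1 (0.911), of which Lag3, Cd3d, Sh2d1a and Trbc1 are known from T lymphocytes. Lag3, an inhibitory receptor, had 743, 634 and 717 counts in the day 14 controls and 691, 135 and 215 in IL-27 mice 4, 6 and 8. It had 181, 181 and 97 counts under cabo and 209, 147 and 99 under IL-27+cabo. The correlation with Lag3 was 0.916 without the 2 tumors farthest from the median of the class, 0.945 over the 12 day 14 tumors and 0.804 over the 8 EOS tumors. Over the EOS tumors the other genes were less alike, at 0.721 for Sh2d1a, 0.594 for Cd3d, 0.565 for Npas4 and 0.427 for Trbc1. In the subcutaneous tumors, which the correlation did not use, the 5 genes were mixed. Lag3 had 4 and 28 counts with IL-27, where Ngp was highest, and 125 and 47 in the controls. Cd3d and Sh2d1a were higher with IL-27 without overlap, at 158 and 105 against 29 and 25 counts and at 65 and 45 against 24 and 6, while Trbc1 and Npas4 overlapped.

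For the calgranulins the genes most alike were Ccl3 (r = 0.903, rho 0.762), which encodes a chemokine of activated macrophages and neutrophils, Junb (0.856), Pnrc1 (0.831), B230303A05Rik (0.830) and Hcar2 (0.830). Without EOS control mouse 9, r was 0.843 for Ccl3, 0.877 for Junb and 0.687 for Hcar2. Without the 2 tumors farthest from the median of the class, mouse 9 and day 14 IL-27+cabo mouse 20, r was 0.810 for Ccl3 and 0.495 for B230303A05Rik, and over the day 14 tumors it was 0.607 for Ccl3 and 0.300 for Hcar2. For the primary granule genes, which were mostly at 0, the highest value was lower, at 0.723 for Btbd17. All of these correlations compare tumors that differ in treatment, time and muscle content, so they describe shared differences between the same tumors and carry no test.

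**Figure D5:**
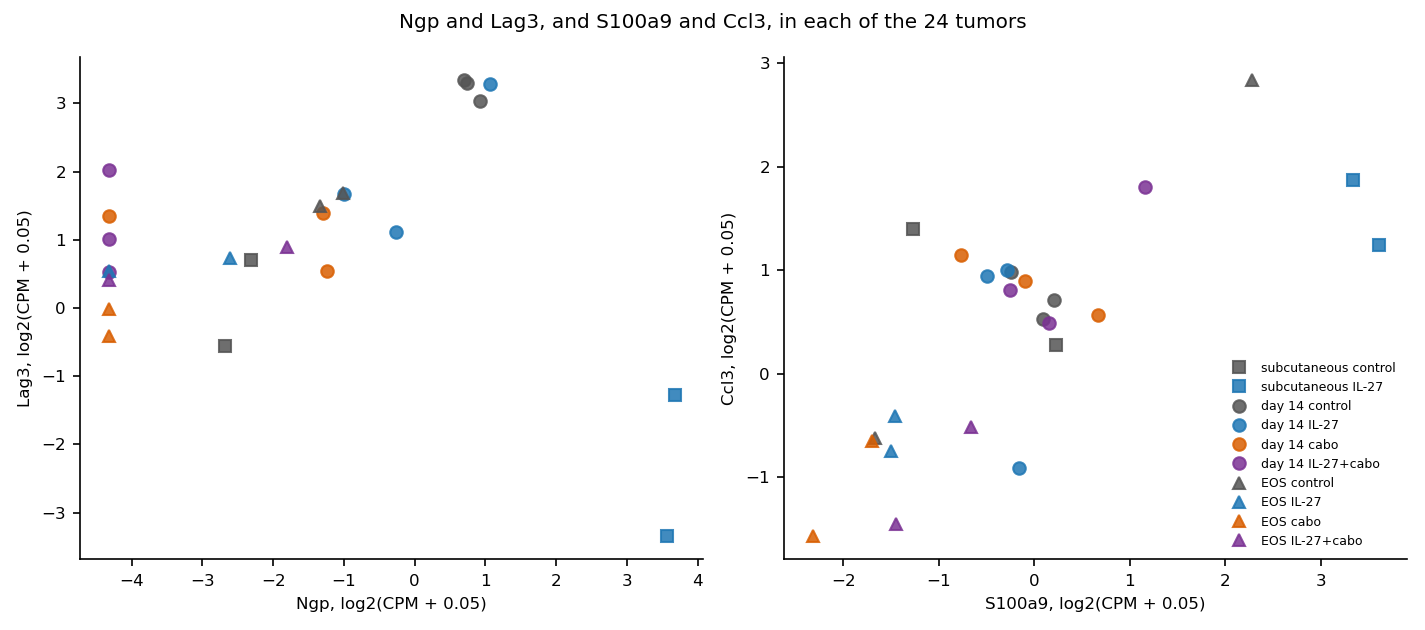
log2(CPM + 0.05) of Lag3 against Ngp (left) and of Ccl3 against S100a9 (right) in each of the 24 tumors, coloured by treatment and shaped by site and time, where the column at the far left of the first panel holds the tumors with no Ngp count. The 3 day 14 controls and day 14 IL-27 mouse 4 sit together at 634 to 743 counts of Lag3, and the subcutaneous IL-27 tumors lie apart with the highest Ngp and 4 and 28 counts of Lag3.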

How the data were processed

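RNA of 24 tumors was sequenced by a company, LC Sciences, as stranded poly(A) libraries, from RNA that passed an integrity minimum. The study's methods name cutadapt for trimming, HISAT2 for alignment, and StringTie with ballgown for transcripts. The authors deposited raw counts per Ensembl gene, without normalization. The program that made the counts and the annotation are not given in the sources used here, and the submitters' processing notes name a human build, GRCh38, for these mouse samples. Between 30.4% and 35.5% of the values from 1 to 20 in a library were multiples of 4, so counts may exceed fragments, and counting error is larger than the counts imply. Of the 55401 identifiers, 55141 were in GENCODE M21.

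Counts were tested in R 4.3.3 with edgeR 4.0.16 (filterByExpr, TMM, two-sided quasi-likelihood F test, Benjamini-Hochberg over all genes tested) in 14 intratibial comparisons. A fit held its own groups alone. The EOS groups shared 1 fit, and the interaction and time-change tests used all groups of their design. DESeq2 1.42.0 was an alternative, and the fits were tested on simulated data. A further 3 fits with a covariate were chosen after seeing the data. Members, gene lists and their order were chosen with earlier results of these data known. All members are described, with other genes named where an adjusted p was under 0.05, where the list named them, or as the 5 genes most alike, and Il1r2 and Ms4a3 after their values were seen. Whether tumors came from separate mice is given by mouse number for the intratibial tumors only, so the subcutaneous spread may be partly technical. Alternatives were the RLE normalization, no filter, all 10 groups in 1 fit, counts divided by 4, removal of trends with GC content and length, and each tumor left out. Protein sequences were not used here, and some genes of the added lists and of those most alike are not reported here.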

Additional observations from a re-analysis of the deposited data

Results flagged for a closer look

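The direction of the difference between IL-27 and control was opposite in the subcutaneous and the EOS intratibial tumors for Ngp and S100a8. Ngp was higher in both subcutaneous IL-27 tumors than in both subcutaneous controls (975 and 987 against 12 and 8 counts) and lower in both EOS IL-27 tumors than in both EOS controls (8 and 0 against 32 and 24 counts). The difference between these log2 ratios of mean CPM, with 0.5 CPM added to each mean, was 5.03. S100a8 had 349 and 325 against 16 and 25 counts in the subcutaneous tumors, and 0 and 0 against 6 and 114 counts at EOS, where the difference between the log2 ratios was 4.07. The subcutaneous contrast chose these genes, so its direction is no finding here, and it makes up 4.34 of the difference for Ngp and 2.62 of that for S100a8. Without EOS control mouse 9, which held the 114 counts, the difference was 2.84 for S100a8 and 5.11 for Ngp, an alternative chosen after seeing the data. Both genes were flagged because the subcutaneous IL-27 tumors all lay above their controls and the EOS IL-27 tumors all below theirs. Such separations are common: of 22301 genes, 28.8% were higher without overlap in the subcutaneous contrast. In EOS IL-27 against EOS control 15.9% were lower without overlap. For S100a8 the EOS separation rests on 6 counts in mouse 13, close to the floor of 3. The day 14 intratibial IL-27 tumors overlapped their controls in both genes, with 145, 50 and 31 against 116, 144 and 119 counts of Ngp and 15, 5 and 34 against 13, 35 and 13 counts of S100a8, so no direction holds for the intratibial site as a whole. The difference was not tested for either gene. Site, harvest time and library series cannot be told apart here. No search for single outlying values was made in groups of 2 or 3 tumors.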

How the results depend on the processing

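Of the values of single members under the alternatives, 1693 kept their side of the threshold or moved by less than the replicate spread, 20 gained a call, 5 lost it and 8 moved. Values with no call changed sign in 22 of 222 settings for Ctsg, 12 of 235 for S100a9, 7 of 193 for S100a8 and 9 of 234 for Lcn2. They did so in 9 of 126 for Prtn3, 4 of 227 for Ltf, 4 of 161 for Camp, 3 of 63 for Mpo and 0 of 218 for Ngp. Under cabo at day 14, 2 members were called with DESeq2 and 2 with counts divided by 4, against 0. Under IL-27+cabo at day 14, 2 were called with DESeq2, and 1, Ngp, when GC content and length trends were removed and when all groups were in 1 fit. DESeq2 called 2 members in EOS against day 14 controls, 1 each in the IL-27, cabo and IL-27+cabo changes from day 14 to EOS, and 1 in EOS cabo against EOS controls. In the added fits, 1 member was called for cabo at day 14 with DESeq2 and with counts divided by 4, and 2 for EOS against day 14 with DESeq2. Leaving out single tumors gave 0 to 1 members in IL-27+cabo at day 14, 0 to 1 in the added cabo fit and 0 to 1 in the added EOS fit. Ltf, called in that added EOS fit, kept its sign over the settings of that fit. Where leaving out a tumor left 1 in a group, that tumor was assumed to vary like the others. In the subcutaneous tumors the log2 difference of Ngp was 6.58 with replicate number as a block and 6.37 with that block and the GC and length trends removed, against 6.57. The labels do not say that a number marks a shared batch, and same-numbered tumors deviated with a correlation of 0.01 over genes, so the numbers were not taken as pairs. No paired analysis was possible for the intratibial groups because their mouse numbers are not shared. Removing the GC and length trends moved Lcn2 from 0.44 to 1.50 and S100a8 from 3.98 to 3.14, and without subcutaneous control replicate 2 Ctsg moved from -0.39 to 0.41 and S100a9 from 3.91 to 4.91; the cause was not tested. Depth limits Mpo, Elane, Prtn3 and Camp, which were at 0 in 18, 19, 11 and 13 of the 20 intratibial tumors.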
